A study of Rattus norvegicus with 138 samples.

Results

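The genes described here encode structural proteins of the adult sarcomere, the contractile unit of skeletal muscle, with the enzymes and the oxygen-binding protein that serve it. The list named 39 genes, and 35 of them were among the 16181 gene symbols of the expression table. Ttn, Neb, Myom3 and Myoz3 were not analysed here. Of the 35, 9 are the fast-fiber form of their protein (Actn3, Mybpc2, Myl1, Mylpf, Myoz1, Tnnc2, Tnni2, Tnnt3 and Tpm1) and 8 the slow-fiber form (Mybpc1, Myl2, Myl3, Myoz2, Tnnc1, Tnni1, Tnnt1 and Tpm3). The other 18 are not tied here to a fiber type. The fiber classes came from textbook knowledge.

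The study followed volumetric muscle loss (VML), the removal of a block of muscle too large to regrow, in the tibialis anterior (TA) of the rat hindlimb. Male Lewis rats about 4 months old had tissue in the middle of the left TA partly removed with a 6 mm biopsy punch. Both TA muscles were taken at 3, 7, 14 or 28 days post-injury (DPI). The defect was either non-repaired or filled at once with a minced muscle graft (MMG) of the animal's own or syngeneic tissue, and some rats of each arm carry a running label that the study's methods do not describe. Whole muscles were homogenised for bulk RNA sequencing, so that tissue next to the defect and tissue far from it were measured together.

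Control muscles were labelled sham at day 0 and described by the study as unoperated. They were the left and right TA of 2 rats, 4 muscles in all. Rats that neither received a graft nor ran gave 3, 8, 4 and 4 injured muscles at 3, 7, 14 and 28 DPI and 2, 4, 2 and 2 contralateral muscles. The MMG rats that did not run gave 7, 8, 4 and 4 injured and 2, 6, 2 and 2 contralateral muscles. Running rats gave 8, 4, 4 and 2 non-repaired injured muscles and 6, 4, 4 and 2 grafted ones, with 2 contralateral muscles per arm at 3, 7 and 14 DPI. All control rats belong to one series of rat numbers and all operated rats to another, so the rat series and the operation cannot be told apart in any comparison with control muscle. Contralateral muscle was therefore the first reference for injured muscle.

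In the sarcomere, thin filaments of actin, tropomyosin and troponin slide past thick filaments of myosin when calcium binds troponin C. Z-discs anchor the thin filaments, and M-bands hold the thick filaments in register. Most of these proteins come in forms specific to fast or slow fibers. The TA of the rat is a predominantly fast muscle, and regenerating fibers pass through developmental isoforms before they acquire adult ones.

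Values are TPM, a transcript abundance scale that divides reads by transcript length and fixes the total of every library, so that levels of different genes can be compared. Libraries with fewer than 7000 symbols above 1 TPM were dropped, which removed 13 of the 129 libraries with a group. The 13 held 901 to 5712 such symbols and up to 83.9% ribosomal RNA, against 7866 or more symbols and at most 16.2% ribosomal RNA in the 116 kept. No counts were used, so the depth behind each value is unknown. Symbols that mark skeletal muscle outside the list, Myh4 and Atp2a1 among them, summed to 84674 TPM in control muscle and 13444 TPM in injured muscle at 3 DPI.

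The promoters of 3 members are shown because the ratio of slow to fast troponin I changed on every day studied and because Acta1 gave the highest level in control muscle. Each line holds the 250 bases before the RefSeq transcription start, 5′ to 3′, in rat build GRCr8, at chr19:68784195-68784444 (minus strand) for Acta1, chr13:49781279-49781528 (plus strand) for Tnni1 and chr1:207024240-207024489 (plus strand) for Tnni2. Capitals mark E-boxes (CANNTG, read by MyoD family factors), the MEF2 site and the CArG box (read by serum response factor), searched on both strands.
Acta1: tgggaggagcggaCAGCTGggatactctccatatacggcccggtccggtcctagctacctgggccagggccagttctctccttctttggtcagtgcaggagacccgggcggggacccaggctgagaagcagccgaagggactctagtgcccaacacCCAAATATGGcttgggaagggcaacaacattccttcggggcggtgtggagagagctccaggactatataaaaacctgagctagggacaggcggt
Tnni1: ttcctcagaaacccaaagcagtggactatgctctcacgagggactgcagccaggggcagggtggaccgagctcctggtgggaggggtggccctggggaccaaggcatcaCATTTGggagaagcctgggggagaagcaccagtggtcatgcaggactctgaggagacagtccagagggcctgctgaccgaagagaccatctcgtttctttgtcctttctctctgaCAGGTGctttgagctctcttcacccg
Tnni2: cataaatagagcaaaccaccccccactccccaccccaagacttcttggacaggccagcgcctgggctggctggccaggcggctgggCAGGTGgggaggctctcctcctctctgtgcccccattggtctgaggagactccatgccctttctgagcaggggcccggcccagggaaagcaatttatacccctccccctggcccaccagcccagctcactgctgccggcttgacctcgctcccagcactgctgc
Promoter entries matched 24 of the 35 members, and Myl2 and Mylpf had none. An E-box was present in 20 of the 24 (83.3%), against 65.2% of all 27457 promoters of the same length. The CArG box was found in Acta1, Myl3 and Ldb3, 12.5% of the 24 against 1.5% of all promoters, and the MEF2 site in Myoz1 and Myoz2, 8.33% against 3.07%. A TATAAA match occurred in 6 of the 24 (25%, against 13.1% of all promoters) and a CATTCC match in 5 (20.8%, against 11.8%). These are letter matches only, and binding was not measured.

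In control muscle the 35 genes together took 33.5% ± 3.46 (SD, n = 4 muscles of 2 rats) of all TPM. Acta1, skeletal α-actin, was the highest at 51986 ± 11719 TPM. It was followed by the fast regulatory light chain Mylpf, the muscle creatine kinase Ckm and the fast tropomyosin Tpm1. Of the 8 slow forms, 7 lay far below their fast partners, with log2 ratios of slow to fast TPM from -8.74 (Tpm3 to Tpm1) to -4.92 (Myl3 to Myl1). Tnni1, slow troponin I, was at 114 TPM against 27066 TPM for fast Tnni2. The exception was Mybpc1, the slow myosin-binding protein C, whose ratio to Mybpc2 was -0.30. Tpm3, slow tropomyosin, was the lowest of the 35 at 76.1 TPM. The 9 fast genes held 20.0% ± 1.96 of all TPM and the 8 slow genes 0.467% ± 0.0188.

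After injury without repair the share of all TPM held by the 35 genes was 9.43% ± 1.24 (n = 3) at 3 DPI, 15.2% ± 3.53 (n = 8) at 7 DPI, 28.4% ± 1.82 (n = 4) at 14 DPI and 27.7% ± 0.516 (n = 4) at 28 DPI. Contralateral muscle held 26.9%, 31.6%, 34.9% and 32.5% on the same days. The plot of shares by muscle shows every value. The fast genes held 5.0%, 8.96%, 17.6% and 16.9% in injured muscle. The slow genes held 0.183%, 0.398%, 0.437% and 0.534% in injured muscle, against 0.571%, 0.479%, 0.432% and 0.495% in contralateral muscle. Their summed mean passed the control share of 0.467% only at 28 DPI, where single injured muscles ran from 0.224% to 0.687%. Mybpc1 alone made up 0.263% of all TPM in control muscle and so weighs most in this sum.

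**Figure D1:**
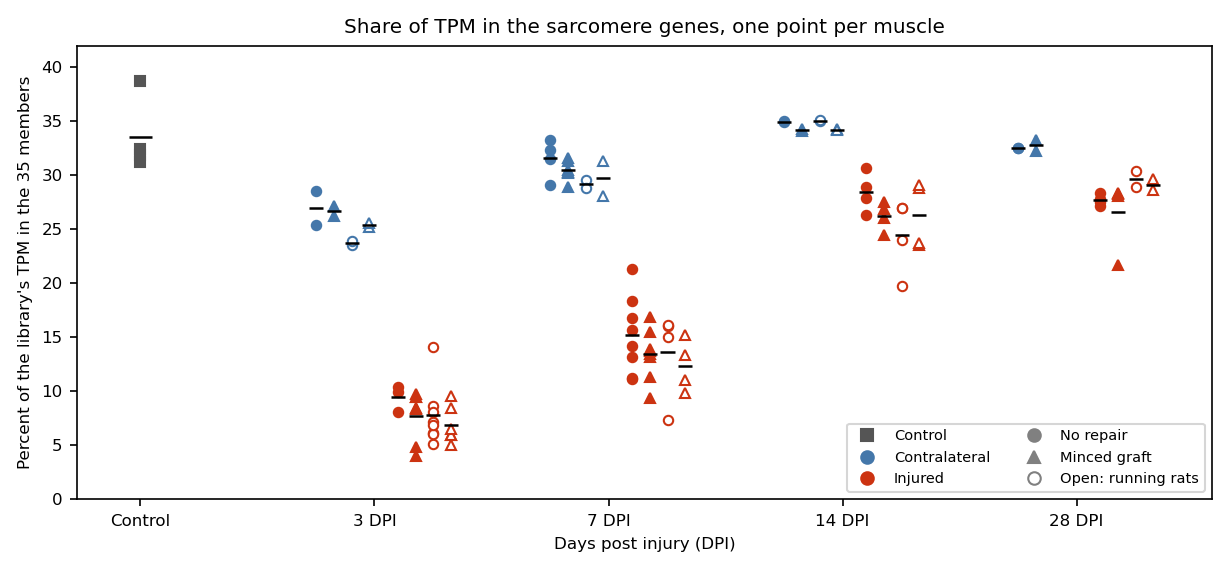
Percent of each library's TPM held by the 35 sarcomere genes, for each muscle, by group and day. Open symbols are running rats and triangles are grafted muscles. Injured non-repaired muscle averaged 9.43% at 3 DPI and 27.7% at 28 DPI, against 33.5% in control muscle.

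Injured muscle was first compared with contralateral muscle of non-repaired, non-running rats, to ask how the sarcomere genes moved with the injury on each day. A gene was called at a limma adjusted p under 0.05 and a change beyond 1 on the log2(TPM + 1) scale, which is the scale of all fold changes below and understates those of low genes. At 3 DPI 24 of the 35 genes fell and 0 rose, with a median change of -1.61, while 5.92% of the 11328 genes tested were called lower and 32.3% higher, and the median of all tested genes was 0.54. At 7 DPI 15 fell and 2 rose, with a median of -0.90, against 2.01% of all tested genes called lower and 45.3% higher. At 14 DPI 1 rose and 0 fell, against 20.9% of all tested genes called higher and 0.168% lower. At 28 DPI 1 rose and 1 fell, against 13.1% and 0.212%. The medians of the members were then -0.20 and -0.14.

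Groups did not overlap, with injured muscle the lower, for 27 members at 3 DPI, where this held for 18.8% of all tested genes. At 14 DPI it held for 19 members, against 7.81% of all tested genes, although none of them was called lower, with 4 injured and 2 contralateral muscles. At 7 and 28 DPI it held for 17 and 16 members, against 4.48% and 8.16% of all tested genes. In bulk tissue, fewer muscle fibers and less of these transcripts per fiber cannot be told apart. The 14 leukocyte markers summed to 5600 TPM (4923 to 6554) in injured muscle at 3 DPI against 158 in contralateral muscle, and to 455 against 66.2 at 28 DPI. The 10 fibroblast markers summed to 14064 TPM in injured muscle at 7 DPI against 480 in contralateral muscle. No marker of either list was at 0 in all muscles, and their part in the changes of the sarcomere genes was not tested.

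TPM fixes the total of each library, so a gain in other transcripts lowers every value. With size factors from the median ratio of all genes, the median of all tested genes moved from 0.54, 0.91, 0.50 and 0.38 to 0.05, 0.06, 0.00 and 0.02 at 3, 7, 14 and 28 DPI, and the members' medians became -2.19, -1.99, -0.87 and -0.61. Calls of lower members then numbered 27, 25, 11 and 5, and calls of higher members 0, 0, 1 and 1. The shares of all tested genes called above belong to the TPM scale and give no background for these counts. The rise of the Z-disc crosslinker Flnc at 7 DPI became 0.00 on that scale and that of Tnni1 at 7 DPI 0.70, which was no longer past the fold. Directions given below are on the TPM scale.

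Of the 13 dropped libraries, 5 came from the injured and contralateral muscles compared at 7 DPI and 0 from those compared on the other days. With all libraries kept, low ones included, 10 members were called higher there and 5 lower, in place of 2 and 15, and the median of the members was -0.25 against 1.48 over all tested genes. The shares of all tested genes called above were taken without the low libraries and give no background for counts in this setting. Of the 17 calls above, 10 were lost: Acta1 (-0.88), Tpm1 (-0.80), Tnni2 (-0.68), Tnnc2 (-0.66), Mylpf (-0.25), Myl3 (-1.07), Myl2 (0.77, the opposite direction), Ldb3 (-0.92), Tcap (-0.90) and Myom2 (-0.60). At 3 DPI 21 members were then called lower, and the calls of Myl1, Mylpf and Tnnt1 were lost.

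**Figure D2:**
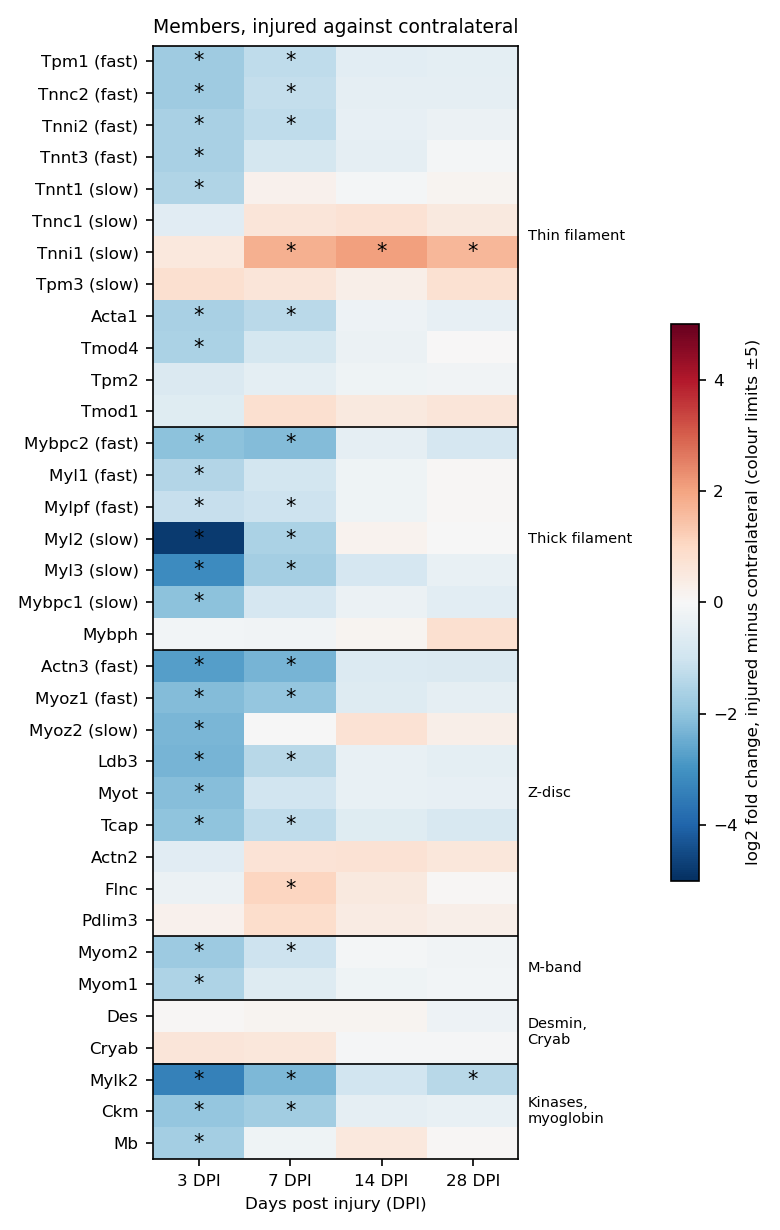
Log2 fold change of each of the 35 genes, injured minus contralateral muscle of non-repaired rats, in rows grouped by role and columns for 3, 7, 14 and 28 DPI. Stars mark genes called by limma. The stars number 24, 17, 1 and 2, and Tnni1 carries one at 7, 14 and 28 DPI.

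Among the 12 thin-filament genes 7 fell at 3 DPI. Acta1 measured 44585, 45820, 48112 and 69428 TPM in control muscle and 37288 and 44602 in contralateral muscle at 3 DPI. Injured muscle gave 11797, 13952 and 14452 TPM at 3 DPI, 12566 to 28858 with a median of 17706 at 7 DPI, 38491, 39429, 42682 and 47303 at 14 DPI, and 34808, 38168, 38806 and 39184 at 28 DPI. The fall against contralateral muscle was -1.61 ± 0.30 (SE, limma adjusted p = 1.69e-06) at 3 DPI and -1.34 ± 0.20 (adjusted p = 3.68e-09) at 7 DPI, the latter -0.88 and short of the fold with all libraries kept. At 28 DPI the 4 injured muscles still lay below both contralateral muscles (47466 and 52543 TPM), with a difference of -0.41 that missed the threshold (adjusted p = 0.227). Contralateral muscle gave 35298, 44910.4, 50884 and 52621 TPM at 7 DPI and 48875 and 51709 TPM at 14 DPI, above every injured muscle of those days.

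The fast troponins, which couple calcium to filament sliding in fast fibers, each fell at 3 DPI. In control muscle Tnni2 was at 25109, 25333, 25923 and 31898 TPM. Tnni2 measured 17672 and 20282 TPM in contralateral muscle at 3 DPI and 5090, 6622 and 7082 TPM in injured muscle (-1.61 ± 0.28, limma adjusted p = 3.81e-07). It ran from 7911 to 15314 TPM with a median of 10808 at 7 DPI, below all 4 contralateral muscles (23340.3, 25489.6, 26998 and 29494 TPM). At 28 DPI its injured values of 19848, 20769, 22001 and 22880 TPM again lay under the contralateral 25847 and 25875. At 14 DPI they were 18777, 20256, 21779 and 22806 TPM, under 27561 and 27919 TPM in contralateral muscle.

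Tnnc2, fast troponin C, went from 22869 and 25832 TPM to 6324, 7043 and 8278 TPM at 3 DPI, a change of -1.76. Tnnt3, fast troponin T, went from 20867 and 22645 TPM to 6113, 7686 and 7720 TPM, a change of -1.61. Tpm1, fast tropomyosin, went from 24262 and 27040 TPM to 6449, 7728 and 8169 TPM, a change of -1.79. These 3 genes lay below contralateral muscle in every injured muscle at 3, 7 and 14 DPI, and at 28 DPI the groups overlapped for Tnnt3 but not for Tnnc2 or Tpm1.

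In control muscle Tnnc2 measured 21906, 23988, 24033 and 26003 TPM. It ran from 8014 to 15228 with a median of 10907 in injured muscle at 7 DPI, against 23023, 25461, 25562 and 26910.2 TPM in contralateral muscle. Injured muscle gave 18895, 21149, 21894 and 22769 TPM against 28826 and 29165 at 14 DPI, and 17984, 20090.5, 20170.2 and 20838 TPM against 26793 and 27349 at 28 DPI. At 14 DPI Tnnc2 in injured muscle overlapped control muscle, and at 28 DPI it lay below it.

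Tnnt3 was at 22886, 23336, 25193 and 26945 TPM in control muscle. At 7 DPI it ran from 8959 to 17586 with a median of 13519.7 against 22671, 23703, 23837 and 26516 TPM. The injured values were 20258, 22199, 22752 and 23372 TPM against 30199 and 30730.0 at 14 DPI, and 23706, 24626, 24930.1 and 27962 TPM against 27095 and 27099 at 28 DPI. The highest injured muscle of that day lay above both contralateral ones. Tpm1 was at 31998, 32400.0, 33183 and 33964 TPM in control muscle and ran from 8789 to 16581 with a median of 11243 at 7 DPI against 26116, 26295, 28806 and 30002 TPM. Later values were 19657, 22612, 23419 and 25549 TPM against 32640.2 and 33209 at 14 DPI and 17357, 20715, 22444 and 26081 TPM against 29170.5 and 31375 at 28 DPI. Every injured muscle of all 4 days lay below every control muscle for Tpm1, as it did for 7.55%, 4.57%, 5.43% and 3.31% of all tested genes at 3, 7, 14 and 28 DPI.

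Of the 4 slow thin-filament genes, Tnnt1 fell at 3 DPI and the other 3 were not called. Tnni1 measured 95.3, 108, 112 and 138 TPM in control muscle. Contralateral muscle gave 210 and 270 TPM at 3 DPI, 238, 254, 262 and 313 at 7 DPI, 79.9 and 228 at 14 DPI, and 156 and 195 at 28 DPI. Injured muscle gave 279, 288 and 496 TPM at 3 DPI, 563 to 1242 with a median of 1005 at 7 DPI, 370.35, 527, 579 and 847 at 14 DPI, and 315, 648, 669 and 710.0 at 28 DPI. On each of the 4 days every injured muscle lay above every contralateral one, which also held for 59.7%, 67%, 73.1% and 67.4% of all tested genes.

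Tnni1 rose by 1.79 ± 0.29 (limma adjusted p = 4.82e-08) at 7 DPI, 2.04 ± 0.42 (adjusted p = 2.16e-05) at 14 DPI and 1.67 ± 0.42 (adjusted p = 0.000674) at 28 DPI. The difference at 3 DPI was 0.52 ± 0.44 (adjusted p = 0.284). The 2 contralateral muscles at 14 DPI set much of that day's size, since the rise was 1.29 without replicate 1 and 2.78 without replicate 2. With size factors the rise of Tnni1 was 1.38 at 14 DPI and 1.2 at 28 DPI, both still called, and 0.70 at 7 DPI, short of the fold. With all libraries kept the call at 28 DPI was lost (1.67, limma adjusted p = 0.0886).

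Tnnc1, the troponin C of slow and cardiac muscle, measured 265 and 478 TPM in contralateral and 183, 196 and 371 TPM in injured muscle at 3 DPI, which overlapped. At 7 DPI injured muscle ran from 209 to 807 TPM with a median of 592, around the contralateral 297, 345, 362 and 401 TPM. It was at 186, 254, 428 and 691 TPM against 129 and 325 at 14 DPI, and 92.4, 614, 631 and 689 TPM against 279 and 280.3 at 28 DPI, where 3 of the 4 injured muscles lay above both contralateral ones. Control muscle gave 151, 156, 164 and 244 TPM. Tpm3 measured 99.0 and 215 TPM in contralateral and 204, 252 and 319 TPM in injured muscle at 3 DPI (0.79, adjusted p = 0.103), against 68.8, 72.6, 73.9 and 89.0 TPM in control muscle. At 7 DPI it ran from 132 to 229 with a median of 183 against 99.5, 101, 115 and 151 TPM. The groups overlapped at 14 DPI (63.0, 73.3, 137 and 189 TPM against 59.0 and 120.0) and at 28 DPI (48.7, 200.4, 225 and 237 TPM against 75.1 and 107).

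Tnnt1, slow troponin T, fell at 3 DPI, from 167 and 368 TPM to 57.2, 81.5 and 140.25 TPM (-1.5, adjusted p = 0.038). The call was lost without contralateral replicate 1 (-0.93), without injured replicate 1 or 3 (-1.2 and -1.46) and with all libraries kept. At 7 DPI Tnnt1 ran from 133 to 379 with a median of 272 TPM, around the contralateral 201, 206, 213 and 291. It was at 84.5, 108, 209.9 and 358 TPM against 105 and 283 at 14 DPI, and 25.9, 451, 455 and 506 TPM against 200.3 and 220.1 at 28 DPI, which overlapped. Control muscle gave 98.7, 125, 129 and 211 TPM. Of the thin-filament genes outside a pair, Tmod4, which caps the pointed filament end, fell by 1.57 at 3 DPI. Tmod1 changed by -0.61 at 3 DPI and 0.78 at 7 DPI, and Tpm2 by -0.73 at 3 DPI, and neither passed both limits.

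**Figure D3:**
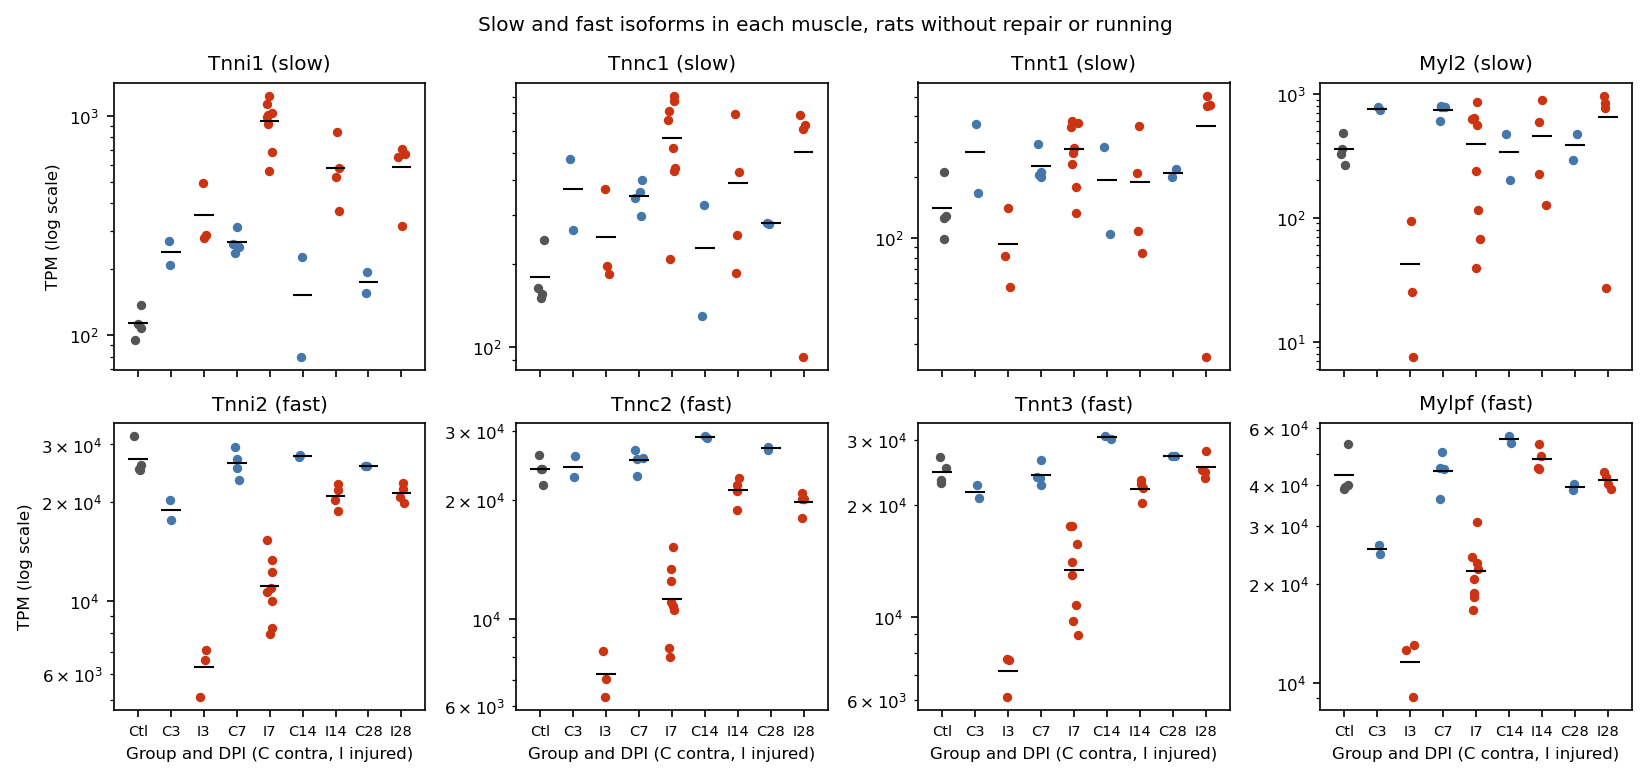
TPM on a log axis of slow (Tnni1, Tnnc1, Tnnt1, Myl2) and fast (Tnni2, Tnnc2, Tnnt3, Mylpf) isoforms in each control, contralateral and injured muscle by day. Tnni1 averaged 114 TPM in control muscle and had a median of 1005 TPM in injured muscle at 7 DPI, while Tnni2 was lower there. Against contralateral muscle of that day the log2 fold change of Tnni1 was 1.79, and 0.70 with size factors.

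Of the 7 thick-filament genes, 6 fell at 3 DPI. Myl2, the regulatory light chain of slow and cardiac myosin, gave the largest fall of the 35 genes on that day. It measured 735 and 787 TPM in contralateral muscle and 7.54, 25.1 and 93.4 TPM in injured muscle at 3 DPI (-4.79 ± 1.07, limma adjusted p = 4.96e-05). Leaving out single injured muscles moved this between -3.94 and -5.67. At 7 DPI injured muscle ran from 39.5 to 861 TPM with a median of 398, against 599.8, 779.9, 783 and 806 TPM in contralateral muscle (-1.57), a call lost without contralateral replicate 3, 4 or 5 (-1.54 to -1.53), without a rat whose labels contradict each other (-1.30, limma adjusted p = 0.0847) and with the compared groups modelled alone (adjusted p = 0.0502). With all libraries kept the direction reversed (0.77, adjusted p = 0.379). At 14 DPI it was at 128, 227, 594 and 894 TPM against 202 and 472, which overlapped. At 28 DPI 3 injured muscles gave 771, 840.1 and 969.5 TPM and the other 27.2, against 293 and 476 TPM in contralateral muscle. Control muscle held 264, 328, 362 and 480.4 TPM of Myl2.

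Myl3, the essential light chain of slow and cardiac myosin, went from 972 and 1121 TPM to 72.3, 136 and 166 TPM at 3 DPI (-3.14 ± 0.73, adjusted p = 0.000108). It was still lower at 7 DPI (84.8 to 828 TPM with a median of 426, against 1048, 1059, 1201 and 1281), and with all libraries kept that call was lost (-1.07). The groups overlapped at 14 DPI, at 313, 363, 728 and 876 TPM against 853 and 1016, and at 28 DPI, at 168, 1240.3, 1305 and 1460.0 TPM against 894 and 1175. Control muscle gave 891, 977, 1149 and 1154 TPM.

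The fast partner of Myl3, Myl1, went from 21013 and 22942 TPM to 6369, 8407 and 9183 TPM at 3 DPI (-1.48), against 27548, 29449, 30320.3 and 39808 TPM in control muscle. It ran from 12767 to 23307 with a median of 16702 at 7 DPI against 28566, 31776, 32350.2 and 33667 TPM. The groups were still apart at 14 DPI (29659, 31267, 33004 and 34296 TPM against 36715 and 37051) and overlapped at 28 DPI (28305, 28340.0, 31077 and 33521 TPM against 28711 and 29484). Mylpf went from 24777 and 26343 TPM to 9047, 12579 and 13073 TPM (-1.16 ± 0.26, limma adjusted p = 5.26e-05), which became -0.99 without injured replicate 1, short of the fold. It was at 38974, 39489, 40040.5 and 53489 TPM in control muscle. At 7 DPI Mylpf ran from 16679 to 30995 with a median of 21513 against 36406, 44784, 45134 and 50667 TPM, and at 14 DPI it was at 44971, 45312, 49301 and 53552 TPM against 53947 and 56652, without overlap. At 28 DPI its injured values of 39047, 40358, 42277 and 44055 TPM overlapped the contralateral 38595 and 40442 in part, a difference of 0.07.

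The myosin-binding proteins C lie along the thick filament and modulate cross-bridges. The slow form Mybpc1 went from 2486 and 2865 TPM to 429, 768 and 788 TPM at 3 DPI (-2.06), against 2348, 2671, 2743 and 2751 TPM in control muscle. At 7 DPI it ran from 676 to 1556 with a median of 919 against 1467, 1652, 1938 and 2015 TPM, which overlapped. Injured muscle was the lower at 14 DPI, at 1811, 1877, 1920.2 and 1935 TPM against 2213 and 2349, and at 28 DPI, at 1511, 1669.7, 2086 and 2098 TPM against 2642 and 2666.

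The fast form Mybpc2 went from 2672 and 3439 TPM to 477, 874 and 907 TPM at 3 DPI (-2.07) and ran from 375 to 1496 with a median of 619 TPM at 7 DPI, below the contralateral 2648, 2866, 2979.9 and 3254 (-2.15). At 14 DPI it was at 1828, 2253, 2587 and 2996 TPM against 3216 and 3362, and control muscle gave 3139, 3206, 3272 and 3318 TPM. At 28 DPI Mybpc2 was at 1606, 1822, 2032 and 2274 TPM against 3333 and 3533 TPM, a difference of -0.84 that missed the threshold (adjusted p = 0.137). Mybph, a related protein of the thick filament, was at 443, 568 and 615 TPM against 413 and 854 TPM at 3 DPI, with 550.0, 560.2, 646 and 667 TPM in control muscle. It ran from 721 to 1395 with a median of 1003 against 915, 1024, 1141 and 1586 TPM at 7 DPI and was at 812, 814, 998 and 1063 TPM against 747 and 909 at 14 DPI, overlapping on both days. At 28 DPI it was at 713, 930.3, 1000.4 and 1193 TPM against 477 and 626 TPM (0.79, adjusted p = 0.0133, short of the fold).

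Of the 9 Z-disc genes, 6 fell at 3 DPI, and both M-band genes, Myom1 and Myom2, fell (-1.54 and -1.83). Actn3, the fast α-actinin that crosslinks thin filaments, fell by 2.76 at 3 DPI and 2.33 at 7 DPI. Myoz1, which tethers calcineurin at the Z-disc of fast fibers, went from 3069 and 3806 TPM to 555, 890.05 and 899 TPM at 3 DPI (-2.16) and ran from 1014 to 2018 with a median of 1295 TPM at 7 DPI against 4467, 4507, 5118 and 5922 (-1.93). It was at 2382, 2593, 2724 and 2869 TPM against 4035 and 4146 at 14 DPI and 2639, 3439, 3584 and 3680.0 TPM against 4328 and 4677 at 28 DPI. With 4208, 4289, 4475 and 6329 TPM in control muscle, every injured muscle of the 4 days lay below contralateral and control muscle.

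The slow relative of Myoz1, Myoz2, went from 190.1 and 196 TPM to 23.5, 46.4 and 52.6 TPM at 3 DPI (-2.29). By 7 DPI it ran from 79.7 to 247 with a median of 170.4 TPM, around the contralateral 135, 148, 185 and 192 (-0.03). At 14 DPI its injured values of 107, 135, 185 and 264 TPM lay above the contralateral 97.0 and 102, and at 28 DPI 49.6, 202, 206 and 251 TPM overlapped 109 and 136. Control muscle gave 100.4, 117, 137 and 151 TPM of Myoz2.

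Tcap, which binds titin at the Z-disc, went from 6918 and 7265 TPM to 1659.7, 1783 and 1865 TPM at 3 DPI (-2.0), against 4311, 6319, 7339.8 and 7895 TPM in control muscle. It ran from 1209.5 to 2593 with a median of 2125 at 7 DPI against 3507, 4633, 5179 and 5933 TPM, and was at 2444, 2607, 2883 and 3083 TPM against 3915 and 4495 at 14 DPI. At 28 DPI its injured values of 3325, 4483, 4484 and 5303 TPM lay below the contralateral 7343 and 7650 TPM (-0.79, adjusted p = 0.0734). Ldb3, a Z-disc scaffold, fell by 2.32 at 3 DPI and Myot, an actin-bundling Z-disc protein, by 2.12. Actn2, Flnc and Pdlim3 were not called at 3 DPI (-0.57, -0.29 and 0.23), and at 7 DPI Flnc rose by 1.09 (adjusted p = 1.08e-06) while its groups overlapped.

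The 3 metabolic and regulatory genes fell at 3 DPI. Mylk2, the kinase that phosphorylates the fast regulatory light chain, went from 1408 and 1516 TPM to 108, 155 and 164 TPM (-3.38 ± 0.46, limma adjusted p = 4.44e-10). It stayed below contralateral muscle in every injured muscle on every day, at 111 to 312 with a median of 146 TPM against 636, 669.8, 831 and 903 at 7 DPI, 354, 378, 390.1 and 482 against 735 and 832 at 14 DPI, and 289, 497, 583 and 637 against 1244 and 1267 TPM at 28 DPI. Control muscle gave 922, 1153, 1154 and 1283 TPM. Mylk2 was the one member called lower at 28 DPI (-1.38 ± 0.43, limma adjusted p = 0.0064), a call lost without contralateral replicate 2 (-1.37, adjusted p = 0.0541) and with all libraries kept (-1.38, adjusted p = 0.143).

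Ckm fell by 1.95 and myoglobin, Mb, by 1.70 at 3 DPI, and at 7 DPI Mb differed by -0.21. Des, the desmin of intermediate filaments, and Cryab, its small heat shock chaperone, were not called against contralateral muscle on any day. Cryab measured 1961, 2207 and 2633 TPM in injured and 1447 and 1543 TPM in contralateral muscle at 3 DPI, which did not overlap, against 847, 852, 853 and 1071 TPM in control muscle. It ran from 397 to 1770.3 with a median of 1291 against 727, 772, 774 and 880.2 TPM at 7 DPI. At 14 DPI it was at 597, 672, 713 and 849 TPM against 659.8 and 793 and at 28 DPI at 453, 823, 858 and 1178 TPM against 755 and 862, overlapping on these 3 days.

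The comparison of fast with slow isoforms used the ratio of slow to fast TPM within each library, so that a scaling of the whole library cancels, apart from the added pseudocount of 1. For 8 pairs, log2((slow + 1)/(fast + 1)) was compared between injured and contralateral muscle of both repair arms by a two-sided exact permutation test within arms, adjusted over the 32 tests. At 3 DPI 5 of the 8 ratios differed, each at the smallest p the design allows (0.00278, adjusted 0.00808, 10 against 4 muscles). Tpm3/Tpm1 (3.22), Tnni1/Tnni2 (2.18) and Tnnc1/Tnnc2 (1.37) moved toward the slow form. Myl2/Mylpf (-3.29) and Myl3/Myl1 moved toward the fast form. Tnnt1/Tnnt3 (0.44, exact permutation adjusted p = 0.288), Mybpc1/Mybpc2 (0.10, adjusted p = 0.3) and Myoz2/Myoz1 (-0.19, adjusted p = 0.6) were not called. The symbol Tpm3, like Tpm1, also covers cytoskeletal tropomyosins of non-muscle cells, so a rise of the slow muscle form and a gain of such transcripts cannot be told apart for this pair. At 3 DPI the fibroblast markers summed to 7995 TPM in injured muscle against 1157 in contralateral muscle.

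At 7 DPI 6 ratios had moved toward the slow form, each at an exact permutation adjusted p of 3.59e-06 with 16 against 10 muscles. They were Tnni1/Tnni2 (3.20), Tnnc1/Tnnc2 (2.11), Tpm3/Tpm1 (2.06), Myoz2/Myoz1 (1.97), Mybpc1/Mybpc2 (1.35) and Tnnt1/Tnnt3 (1.25). Myl2/Mylpf (-0.55, adjusted p = 0.288) and the other light chain pair were not called. Embryonic and cardiac isoforms outside the list summed to 3126 TPM in non-repaired injured muscle at 7 DPI against 174 in contralateral muscle. A ratio of isoforms is not a count of fibers, and a change of fiber type was not tested. At 14 DPI 3 of the 8 differed by the exact permutation test with 8 against 4 muscles, Tnni1/Tnni2 by 2.76, Myoz2/Myoz1 by 1.52 and Tnnc1/Tnnc2 by 1.54 (adjusted p = 0.0102, 0.0102 and 0.0284). At 28 DPI only Tnni1/Tnni2 differed among the 8, by 2.32 (exact permutation, adjusted p = 0.0102).

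Single muscles of Tnni1/Tnni2 ran from -4.24 to -2.75 in injured and -6.85 to -6.21 in contralateral muscle at 7 DPI. At 28 DPI they ran from -6.60 to -4.65 and from -8.36 to -7.04. Injured and contralateral muscles did not overlap for this ratio on any of the 4 days. Within the non-repaired arm alone no pair could pass at 3, 14 or 28 DPI, since the splits are too few. With the rat as a block (signs of the injured minus contralateral difference flipped within rats), 6 pairs were called at 7 DPI and 0 on the other days, where too few rats gave both muscles for any pair to pass.

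**Figure D4:**
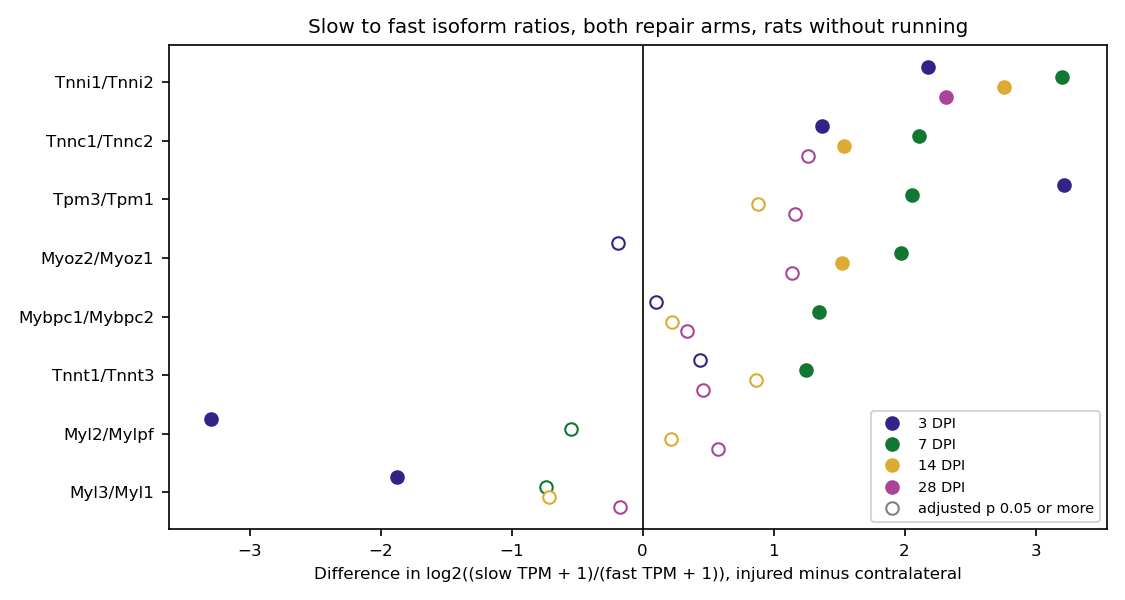
Injured minus contralateral difference of the log2 ratio of slow to fast TPM for 8 isoform pairs at 3, 7, 14 and 28 DPI, both repair arms. Filled symbols have an adjusted exact permutation p under 0.05, and values above 0 are toward the slow form. The pairs past the threshold number 5, 6, 3 and 1, and Tnni1/Tnni2 is filled on all 4 days.

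The coefficient of variation (SD over mean, in percent) had a median of 52.3% over the 8 slow genes in non-repaired injured muscle at 28 DPI, against 8.26% over the 9 fast genes. The first of these rests on 1 muscle, replicate 4, and without it the medians were 8.41% and 7.54%. At 14 DPI the medians were 49.6% and 8.34%, and in grafted muscle 36.2% and 5.62% at 14 DPI and 46.2% and 14.0% at 28 DPI. Control muscle gave 16.8% and 12%. At 28 DPI replicate 4 of the non-repaired injured muscles was the lowest of the 4 for all 8 slow genes and the highest for 7 of the 9 fast ones. This muscle was singled out, and left out here, after its values were seen.

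Without it, 4 of the 8 ratios differed at 28 DPI by the exact permutation test, Tnni1/Tnni2 by 2.45 and Tnnc1/Tnnc2 by 1.61 (adjusted p = 0.0142), Tpm3/Tpm1 by 1.48 and Myoz2/Myoz1 by 1.43 (adjusted p = 0.0237). Against contralateral muscle the members called then numbered 4, with Tnni1 (1.95), Tpm3 (1.28, limma adjusted p = 0.00889) and Tnnc1 (1.2, adjusted p = 0.045) higher and Mylk2 (-1.52) lower.

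The comparison with control muscle used the same injured muscles, and its values stand beside those above. It took the 4 control muscles, which came from 2 rats, as separate. It called 23 members lower and 3 higher at 3 DPI, where 4.24% of all tested genes were called lower and 48.3% higher. At 7 DPI 16 were lower and 3 higher, against 2.42% and 45.6% of all tested genes. At 14 DPI 3 were lower and 1 higher (0.547% and 25% of all genes), and at 28 DPI 2 were lower and 2 higher (0.212% and 21.1%). Tnni1 was higher on all 4 days, by 1.59, 3.02, 2.29 and 2.30. Tpm3 was higher by 1.73 at 3 DPI and 1.19 at 7 DPI, Cryab by 1.32 at 3 DPI, and Tnnc1 by 1.59 at 7 DPI and 1.18 at 28 DPI. Without the 28 DPI muscle singled out above, the last value was 1.87, while without replicate 1, 2 or 3 it was 0.91 to 0.97 and not called. That call of Tnnc1 was also lost with the 2 groups modelled alone (adjusted p = 0.101) and with all libraries kept (adjusted p = 0.302), and the one at 7 DPI with all libraries kept (1.22, adjusted p = 0.156), as was that of Tpm3 at 7 DPI (0.83). Mylk2 was lower on all 4 days, by -2.99, -2.83, -1.49 and -1.22, and so was Actn3, by -3.20, -2.72, -1.21 and -1.03. At 28 DPI both rested on single muscles. Without injured replicate 3 Mylk2 differed by -0.98 and Actn3 by -0.89, and without control replicate 4 Actn3 differed by -0.87, each short of the fold. With all libraries kept neither was called at 28 DPI (adjusted p = 0.0564 and 0.107), nor Actn3 at 14 DPI (adjusted p = 0.0512). Tcap was lower at 14 DPI (-1.2). With size factors 14 members were called lower and 1 higher at 14 DPI, and 11 lower and 1 higher at 28 DPI. The shares of all genes above belong to the TPM scale and give no background for these counts. On the size-factor scale Tnni1 was higher by 1.94, 1.61 and 1.63 at 7, 14 and 28 DPI but not called at 3 DPI (0.45). The rises of Tpm3 (0.59 and 0.11), Cryab (0.17) and Tnnc1 (0.50 on both days) were then no longer called, while Mylk2 and Actn3 stayed lower on all 4 days.

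Contralateral muscle was itself compared with control muscle. At 3 DPI the 35 genes held 25.3% and 28.5% of all TPM in the contralateral muscles of non-repaired rats and 26.2% and 27.1% in those of grafted rats, below the 31.2% to 38.7% of the 4 control muscles. In the non-repaired rats the fast genes held 15.1% against 20.0% in control muscle. Over the same contralateral muscles the 14 leukocyte markers summed to 86.8 and 229 TPM, against 21.6 to 44.8 in control muscle, and the 10 fibroblast markers to 696 and 1619 TPM against 90.7 to 271, and their part in the lower share was not tested. On the TPM scale Tnni1 was the one member called, higher by 1.07 (limma adjusted p = 0.0253) at 3 DPI and 1.23 (adjusted p = 0.0137) at 7 DPI, where 6.37% and 0.636% of all tested genes were called higher. All 6 contralateral muscles of these days (210 to 313 TPM) lay above all 4 control muscles, as they did for 60.2% and 7.43% of all tested genes. At 14 and 28 DPI limma called 0 members (0.715% and 0.185% of all genes), with 1 and 0 of the 35 lower at an unadjusted p under 0.05 (6.73% and 0.538% of all tested genes) and 0 higher (7.98% and 11.1%). Mybph at 7 DPI differed by 0.92 (adjusted p = 0.00406), short of the fold. The call of Tnni1 at 3 DPI rested on single muscles and was lost without contralateral replicate 1 or control replicate 3 (0.89 and 0.99), with size factors (0.50), with the compared groups modelled alone (adjusted p = 0.0673) and with all libraries kept (adjusted p = 0.412). That at 7 DPI was lost with all libraries kept (0.75), a setting in which 16 members were called lower that day and 0 higher. The share of all tested genes called in that setting is not given here. With size factors 4 members were called lower in contralateral than in control muscle at 3 DPI, Mylpf (-1.31), Myl1 (-1.09), Tnni2 (-1.08) and Myoz1 (-1.05).

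Within non-repaired injured muscle, 28 DPI was set against 3 DPI to ask how far levels came back. By limma 24 members were higher at 28 DPI and 1 lower, where 4.53% of all tested genes were called higher and 24.3% lower. The median change was 1.51, against -0.44 over all tested genes. All 9 fast genes rose, with a median of 1.82, and 5 of the 8 slow genes. Among these the rise of Tnnt1 (1.39) was lost without injured replicate 1 or 3 at 3 DPI, or replicate 1, 2 or 3 at 28 DPI (1.01 to 1.34), and was 2.42 without replicate 4 at 28 DPI. It was also lost with all libraries kept (adjusted p = 0.211) and with the compared groups modelled alone (adjusted p = 0.217). The largest rises were those of Myl2 (3.73), Myl3 (2.74) and Ldb3 (2.35). Without replicate 4 at 28 DPI those of Myl2 and Myl3 were 4.96 and 3.49, and without single muscles at 3 DPI that of Myl2 ran from 2.88 to 4.61. Cryab fell by 1.52 (adjusted p = 4.54e-06).

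The MMG arm was compared with the non-repaired arm to ask whether the graft changed these genes in injured muscle. On each of the 4 days limma called 0 of the 35 members, and 0.00883%, 0.0883%, 0.0265% and 0% of all tested genes. At an unadjusted p under 0.05, 9 members (25.7%) were lower in grafted muscle at 3 DPI, against 1.64% of all tested genes lower and 15.6% higher, and 0 members were higher. On the later days 0 members differed at that limit, against 26.6%, 5.1% and 1.09% of all tested genes higher and 0.477%, 0.124% and 0.15% lower. The 9 were Mylk2, Tnni1, Myoz1, Tnnc2, Tnni2, Tmod4, Mylpf, Tnnt3 and Myl1. Member changes ran from -0.72 to 0.50 at 3 DPI, -0.48 to 0.33 at 7 DPI, -0.33 to 0.78 at 14 DPI and -0.48 to 0.57 at 28 DPI, with medians of -0.38, -0.20, -0.11 and -0.05. At 3 DPI 2 of the 7 grafted muscles, replicates 1 and 2, stood apart in the members' share of TPM (3.97% and 4.81%, against 8.31% to 9.77% in the other 5 and 8.03% to 10.4% without repair). Without these 2, left out after their values were seen, 0 members were lower at an unadjusted p under 0.05 in limma, 0 were higher, and the median was -0.04.

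The share of all TPM held by the 35 genes was 7.74% (3.97% to 9.77%), 13.4% (9.33% to 16.9%), 26.2% (24.5% to 27.5%) and 26.6% (21.7% to 28.3%) in grafted muscle at 3, 7, 14 and 28 DPI. Without replicates 1 and 2 the mean at 3 DPI was 9.08%, and without replicate 2 at 28 DPI, the one at 21.7%, it was 28.2%. Tnni1 measured 55.6 TPM in replicate 1 and 225 to 323 TPM in the other 6 grafted muscles at 3 DPI, with a median of 246 (-0.69 ± 0.33, limma adjusted p = 0.273) and 837 to 1389 with a median of 999 at 7 DPI (0.18 ± 0.24, adjusted p = 0.637). At 14 DPI it measured 684 to 901 TPM (0.52 ± 0.34) and at 28 DPI 240.0 to 694 TPM (-0.14 ± 0.34).

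Running was compared with no running in non-repaired injured muscle. By limma 0 members were called on any day, with 0.0441%, 0%, 0.0177% and 0.0177% of all tested genes called. At an unadjusted p under 0.05, 7 members (20%) were lower in running rats at 3 DPI and 6 (17.1%) at 7 DPI, against 4.71% and 10.2% of all tested genes, and 0 were higher on these days, against 9.79% and 11.2%. At 14 DPI Cryab alone was higher (0.65, limma adjusted p = 0.437), where 9.43% of all tested genes were higher and 0.53% lower. At 28 DPI 0 members differed, against 0.512% higher and 3.28% lower. These counts rested on single running muscles. Without replicate 6 at 3 DPI, left out after its values were seen, 18 members were lower (6.34% of all tested genes), and without replicate 3 at 7 DPI 0 were lower (3.6%), with 0 called in either case. Member changes ran from -0.78 to 0.99, -0.66 to 0.52, -0.77 to 0.65 and -0.33 to 1.16 on the 4 days. The 1.16 at 28 DPI was that of Myl2 and leans on replicate 4 of the rats that did not run. Myl2 in that muscle lay far below the rest of its group. The slow genes had medians of -0.02, 0.10, 0.44 and 0.55 and the fast genes -0.43, -0.23, -0.30 and 0.09, and this difference between the classes was not tested. The 28 DPI values include replicate 4 of the rats that did not run, the lowest of its group for all 8 slow genes. Class medians without that muscle are not given here. The shares of all TPM in running rats without a graft were 7.75% (5.05% to 14.1%), 13.6% (7.28% to 16.1%), 24.4% (19.8% to 27.0%) and 29.6% (28.9% and 30.4%). Without replicate 6, the one at 14.1%, the mean at 3 DPI was 6.85%, and without replicate 3, the one at 7.28%, that at 7 DPI was 15.7%, against 15.2% in rats that did not run. Running rats with a graft held 6.89%, 12.4%, 26.3% and 29.1%.

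**Figure D5:**
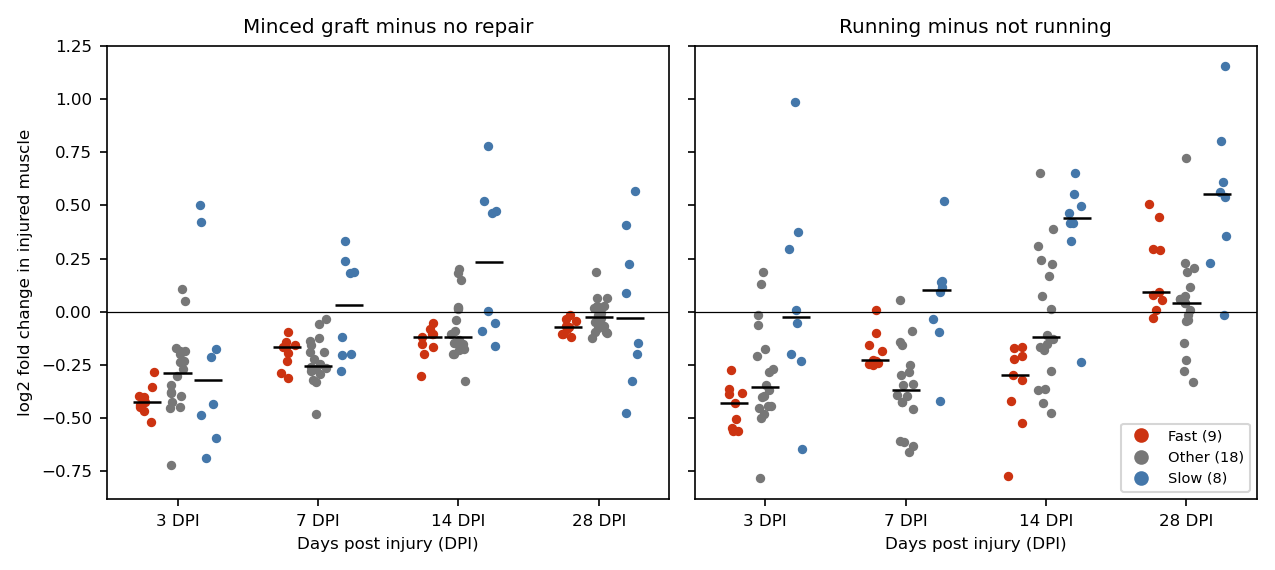
Log2 fold change of each sarcomere gene, grafted minus non-repaired and running minus not running, in injured muscle by day and by fiber class (fast, other, slow), with a line at each median. None of the 35 passed the limma threshold in either comparison, and the 28 DPI running group held 2 muscles.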

How the data were processed

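RNA of whole TA muscles was sequenced by the authors, who quantified reads with Kallisto on rat genome build 6.0 and deposited TPM per gene symbol, used here as deposited. Kallisto divides reads shared by near-identical transcripts, so values of close paralogs such as Acta1 and Actc1 carry that uncertainty. The version of Kallisto is not given in the sources used here, no counts were used, and the precision rests on the number of muscles alone. Of 138 libraries, 9 had labels that contradict each other and were left out, 13 with fewer than 7000 symbols above 1 TPM were dropped, and the 116 others were averaged to 114 muscles in 31 groups. The symbols run in alphabetical order up to Tubb3.

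Genes with a mean above 1 TPM in at least 1 group (11328) were tested on log2(TPM + 1) with limma 3.58.1 in R 4.3.3, in one model of all groups (83 residual degrees of freedom) with an intensity trend. p values were adjusted by Benjamini and Hochberg over all genes of a comparison, and calls needed an adjusted p under 0.05 and a log2 fold change beyond 1. Ratios of isoforms were compared by exact permutation. The code was tested on simulated data. Figures and tables used Python 3.11.15 with pandas 2.3.3, matplotlib 3.10.9, scipy 1.17.1 and numpy 2.4.6.

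Values of every muscle (lowest, median and highest in groups over 5) were given for the 16 genes of the isoform pairs, the 2 highest in control muscle and the 3 highest and 3 lowest changes at 3 and 28 DPI, 21 genes in all. Genes off the list were the highest and lowest 2 of each list. The members and lists were chosen with earlier results of these data known. Both muscles of a rat share its number. Over 36 such pairs their deviations from the group means correlated by 0.0722 on average (-0.641 to 0.358), and a rat block (statmod 1.5.0, correlation 0.0260) was an alternative. Others were a pseudocount of 0.1, no filter, size factors, ribosomal RNA taken out, all libraries kept, each library as its own sample, smaller models, no trend, a rat with contradictory labels left out, and, in groups of 2 to 5 muscles only, each muscle left out in turn. Leaving a muscle out of the spread at 28 DPI, and muscles that stood apart out of the graft and running comparisons at 3 DPI, was added after seeing the data.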

Additional observations from a re-analysis of the deposited data

Results flagged for a closer look

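The genes given muscle by muscle were examined in control and in non-repaired, non-running groups, Tnni1 also in grafted injured muscle, and the summed share in every group. Of these 125 sets of 4 to 8 muscles, 20 held a muscle far from the rest of its group by Dixon's criterion, which chance alone meets in about 1 of 20 sets. Genes of one muscle are not independent, and the 20 come from 9 muscles.

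Replicate 4 of the control muscles gave 7 of them, each as the highest of 4. Its share of TPM in the sarcomere genes was 38.7% against 31.2% to 32.4% in the others. Without this muscle the mean control share was 31.8%. Its library held 7866 symbols above 1 TPM, the fewest of those kept, against 8760 to 8914 in the other control muscles. Acta1 stood at 69428 TPM (others 44585 to 48112), Mylpf at 53489 TPM (38974 to 40040.5) and Tnni2 at 31898 TPM (25109 to 25923). Myoz1 was at 6329 TPM, Tnnc1 at 244 TPM and Cryab at 1071 TPM, against at most 4475, 164 and 853 TPM in the others.

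Replicate 4 of the non-repaired injured muscles at 28 DPI gave 4, each as the lowest of 4 and each in a slow gene. Myl3 was at 168 TPM (others 1240.3 to 1460.0), Tnnc1 at 92.4 TPM (614 to 689), Tnni1 at 315 TPM (648 to 710.03) and Tnnt1 at 25.9 TPM (451 to 506).

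Replicate 7 of the non-repaired injured muscles at 7 DPI was the highest of 8 for Mylk2 at 312 TPM (others 111 to 190.1), Mybpc2 at 1496 TPM (375 to 796) and Myoz1 at 2018 TPM (1014 to 1482). Among the contralateral muscles at 7 DPI, replicate 6 was the lowest for Myl2 at 599.8 TPM (779.9 to 806) and replicate 5 the highest for Tnnt1 at 291 TPM (201 to 213).

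The share of TPM in the sarcomere genes stood apart in 3 muscles of the grafted and running groups. It was 21.7% in replicate 2 of the grafted injured muscles at 28 DPI (others 28.1% to 28.3%), 7.28% in replicate 3 of the non-repaired running injured muscles at 7 DPI (15.0% to 16.1%) and 14.1% in replicate 6 of the same arm at 3 DPI (5.05% to 8.62%). Tnni1 was at 55.6 TPM in replicate 1 of the grafted injured muscles at 3 DPI (225 to 323).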

How the results depend on the processing

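The calls rest on few muscles, 2 contralateral muscles on most days, and on a scale whose depth is unknown. Over all alternatives, 2013 of 2081 values of called genes kept their direction and their side of the threshold, 67 lost the call and 1 reversed. That one was Myl2 at 7 DPI, which stood at 0.77 against contralateral muscle with all libraries kept. A pseudocount of 0.1, no filter, no intensity trend, each library as its own sample and a model without running rats left every count of called members within 1.5 times its value.

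Size factors gave 12 and 6 called members against contralateral muscle at 14 and 28 DPI. Against control muscle they gave 15 and 12, of which 14 and 11 were lower. For contralateral against control muscle at 3 DPI they gave 4, all lower. With all libraries kept, low ones included, 10 members were higher and 5 lower against contralateral muscle at 7 DPI, in place of 2 and 15, and the counts were 0 at 28 DPI against contralateral muscle and 1 against control muscle, and for contralateral against control muscle 0 at 3 DPI and 16, all lower, at 7 DPI. The contralateral share of TPM at 7 DPI was then 25.7%. Taking out ribosomal RNA moved the contralateral share at 28 DPI to 32.6%. When each comparison was modelled with its own 2 groups alone, contralateral against control muscle gave 0 at 3 DPI and 2 at 7 DPI. The shares of all tested genes called under these alternatives are not given here.

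Leaving out single muscles, in groups of 2 to 5 alone, gave 1 to 2 called members at 14 DPI and 1 to 4 at 28 DPI against contralateral muscle. It gave 1 to 6 at 28 DPI against control muscle, and for contralateral against control muscle 0 to 2 at 3 DPI and 1 to 2 at 7 DPI. Against contralateral muscle, leaving out injured replicate 1 gave 2 at 14 DPI, and leaving out contralateral replicate 2 gave 1 at 28 DPI, where Mylk2 was no longer called. Without injured replicate 3 the count against control muscle at 28 DPI was 1. Called isoform pairs ran from 1 to 4 at 28 DPI, with 4 only without injured replicate 4.

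With the rat as a random block in limma, no count of called members changed (24, 17, 1 and 2 against contralateral muscle). For the isoform pairs, sign flips within rats as a block gave 0 at 3, 14 and 28 DPI, and so did the non-repaired arm alone, both too small to pass the threshold.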

Other observations

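Genes that work beside the sarcomere but were not on the list were compared between non-repaired injured and contralateral muscle in the same model. Of all tested genes 32.3%, 45.3%, 20.9% and 13.1% were called higher at 3, 7, 14 and 28 DPI, and 5.92%, 2.01%, 0.168% and 0.212% lower. Of 29 sarcomere partners tested, limma called 3, 8, 5 and 2 higher at 3, 7, 14 and 28 DPI, and 13, 3, 0 and 0 lower. Their higher calls were thus no more frequent than those of all tested genes on any of the 4 days. Csrp3, a LIM protein of the Z-disc that senses load, averaged 617 TPM in injured and 89.5 TPM in contralateral muscle at 3 DPI and 292 against 54.9 TPM at 28 DPI (2.79 and 2.29). Lmod2, which nucleates actin filaments, differed by 0.27 at 3 DPI and was higher by 1.60 at 28 DPI. Hspb8, a small heat shock protein, was higher by 1.05 at 3 DPI. Jph1, a junctophilin that ties the sarcoplasmic reticulum to the T-tubule, and Synm, an intermediate filament protein, were the lowest at 3 DPI (-2.15 and -2.13).

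Of 7 embryonic or cardiac isoforms tested, 5, 6, 6 and 5 were called higher at 3, 7, 14 and 28 DPI, beside the 32.3%, 45.3%, 20.9% and 13.1% of all tested genes. Tnnt2, the cardiac and embryonic troponin T, averaged 376 TPM at 3 DPI against 2.42 TPM in contralateral muscle (6.72) and 75.1 against 1.04 TPM at 28 DPI (5.2). Myh3, embryonic myosin heavy chain, was higher by 2.61 at 3 DPI and 4.16 at 28 DPI, and Actc1, cardiac α-actin, by 4.61 and 2.86. Among 9 fiber-type genes outside the list, 7 were lower and 1 higher at 3 DPI (5.92% and 32.3% of all tested genes), with Myh7, slow myosin heavy chain, at -3.91 and Myh4, the fastest myosin heavy chain, at -2.96. Casq2, the calsequestrin of slow and cardiac muscle, was the one higher, by 2.63 at 3 DPI and 2.34 at 28 DPI. Fold changes are on the log2(TPM + 1) scale, and all of these lists were written with earlier results of these data known.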
